A study of Mus musculus with 8 samples.

Results

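The Oas family and a small set of antiviral interferon-stimulated genes were followed across 8 subcutaneous tumors: Oas1a, Oas1g, Oas2, Oas3, Oasl2, Zbp1, Ifi44 and Rtp4. The genes were taken by symbol from the authors' deposited table, and all 8 were found among its 752 genes. The tumors grew from MC38, a colon adenocarcinoma line of C57BL/6 mice, injected under the skin of wild-type germ-free C57BL/6 hosts and removed on day 23. Hosts of tumors 11, 17, 18 and 19 received a monoclonal antibody against PD-1, an inhibitory receptor of T cells, by injection into the peritoneum (antibody-only tumors; labelled anti-PD-1 in the plots). Hosts of tumors 36, 37, 39 and 40 received the antibody together with Fusobacterium nucleatum ATCC-25586, an anaerobe that lives in the mouth and gut, given by gavage. A group without the antibody was not analysed here, so both groups share the antibody and the germ-free host. The comparison asks what the bacterium changes in the tumor transcriptome under anti-PD-1 treatment.

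Interferons bind receptors on the cell surface and activate STAT and IRF transcription factors, which turn on many genes through a short promoter element, the interferon-stimulated response element. Oas proteins are enzymes that recognise double-stranded RNA and then make short oligoadenylates, which activate the nuclease RNase L, so that cellular and viral RNA is cut. Zbp1 recognises nucleic acids in the left-handed Z form and can start cell death through the kinase Ripk3. Ifi44 and Rtp4 are also induced by interferon, and Rtp4 was first described as a chaperone that brings receptors to the cell surface. In tumors these transcripts serve as a readout of interferon signaling in cancer cells and in infiltrating immune cells alike.

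Mean levels of all 8 genes were lower in the F. nucleatum group. The log2 differences ran from -1.02 for Rtp4 to -1.70 for Oas2, and mean FPKM (fragments per kilobase of transcript and per library size) in the F. nucleatum group was 35.8% (Zbp1) to 55.0% (Rtp4) of that in the antibody-only group. Zbp1 and Oas3 fell, in the sense that their false discovery rate (FDR) in the authors' deposited table was under 0.05. In 7 of the 8 genes tumors 37, 39 and 40 were each below every antibody-only tumor, whereas tumor 36 of the same group lay within the range of the antibody-only tumors in 7 of the 8 genes. The share of all 752 genes with tumors 37, 39 and 40 so placed was not counted. The placement is therefore not shown to be particular to the 8. Every gene of the deposited table has an authors' p of at most 0.04995 in this same comparison and a log2 difference of more than 1 in either direction. The direction and size of these differences are therefore descriptions, and 353 of the 752 genes (46.9%) were lower.

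The 5 Oas genes lie on chromosome 5 (GRCm38, the assembly also called mm10). Oas2 (ENSMUSG00000032690, 120730333 to 120749853), Oas3 (ENSMUSG00000032661, 120753098 to 120777661), Oas1g (ENSMUSG00000066861, 120876142 to 120887613) and Oas1a (ENSMUSG00000052776, 120896256 to 120907521) are all on the minus strand within 177.2 kilobases, a stretch that holds 9 annotated Oas genes. Oasl2 (ENSMUSG00000029561, 114896936 to 114912234, plus strand) lies 5818099 bases before that cluster. Oas1a and Oas1g are close copies. Of all distinct 50-base stretches of the annotated Oas1a transcripts, 57.6% also occur in Oas1g, so reads of this pair cannot be assigned with certainty and their single values are uncertain. The matching share was 0.310% or less for Oas2, Oas3, Oasl2, Zbp1 and Ifi44.

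The promoters of Oas1a, Oas1g and Oas3 are shown because the 4 genes of the cluster measured here were low in the same 3 tumors and because these windows hold matches to the core of the element named above. Each window runs from 250 bases before to 50 bases after the annotated start site (RefSeq, GRCm38.p6, 5′ to 3′ on the gene's strand), at chr5:120907476-120907775 for Oas1a, chr5:120887564-120887863 for Oas1g and chr5:120777610-120777909 for Oas3, all on the minus strand. Capitals mark pairs of GAAA set 2 bases apart, with any bases between them, which is that core.
Oas1a: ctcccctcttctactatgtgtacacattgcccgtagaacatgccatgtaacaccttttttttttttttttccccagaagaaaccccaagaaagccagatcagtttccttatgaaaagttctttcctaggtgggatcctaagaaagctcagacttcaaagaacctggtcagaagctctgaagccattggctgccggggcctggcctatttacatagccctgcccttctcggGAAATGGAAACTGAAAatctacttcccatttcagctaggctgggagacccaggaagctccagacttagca
Oas1g: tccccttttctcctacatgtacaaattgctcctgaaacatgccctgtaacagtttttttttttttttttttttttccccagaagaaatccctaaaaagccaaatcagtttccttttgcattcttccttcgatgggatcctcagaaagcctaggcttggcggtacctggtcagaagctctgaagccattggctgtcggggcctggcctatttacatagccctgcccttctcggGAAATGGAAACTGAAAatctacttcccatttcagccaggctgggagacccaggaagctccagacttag
Oas3: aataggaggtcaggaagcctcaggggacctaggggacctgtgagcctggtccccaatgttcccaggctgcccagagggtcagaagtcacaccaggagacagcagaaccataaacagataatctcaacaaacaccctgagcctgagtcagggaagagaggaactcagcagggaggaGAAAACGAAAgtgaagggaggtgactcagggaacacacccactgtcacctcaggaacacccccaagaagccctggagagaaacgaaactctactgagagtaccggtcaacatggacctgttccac
Oas1a and Oas1g hold the same 16-base stretch, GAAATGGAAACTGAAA, made of 2 overlapping pairs, which begins 20 and 18 bases before the start site. Oas3 holds 1 pair, GAAAACGAAA, which begins 75 bases before its start site. The Oas1a and Oas1g windows were identical at 85.3% of aligned positions. On either strand (TTTC pairs in reverse), such a pair was present in 3.44% of the 32851 promoters of the same length. The windows of Oasl2 and Ifi44 hold no such pair, which says nothing about the factors that act there. A second motif, TTCNNNGAA, the core bound by STAT dimers, was found once in Oas1a, in none of the other 4 windows, and in 8.30% of all promoters. The promoter table matched 5 of the 8 genes; the others are Oas2, Zbp1 and Rtp4.

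**Figure D1:**
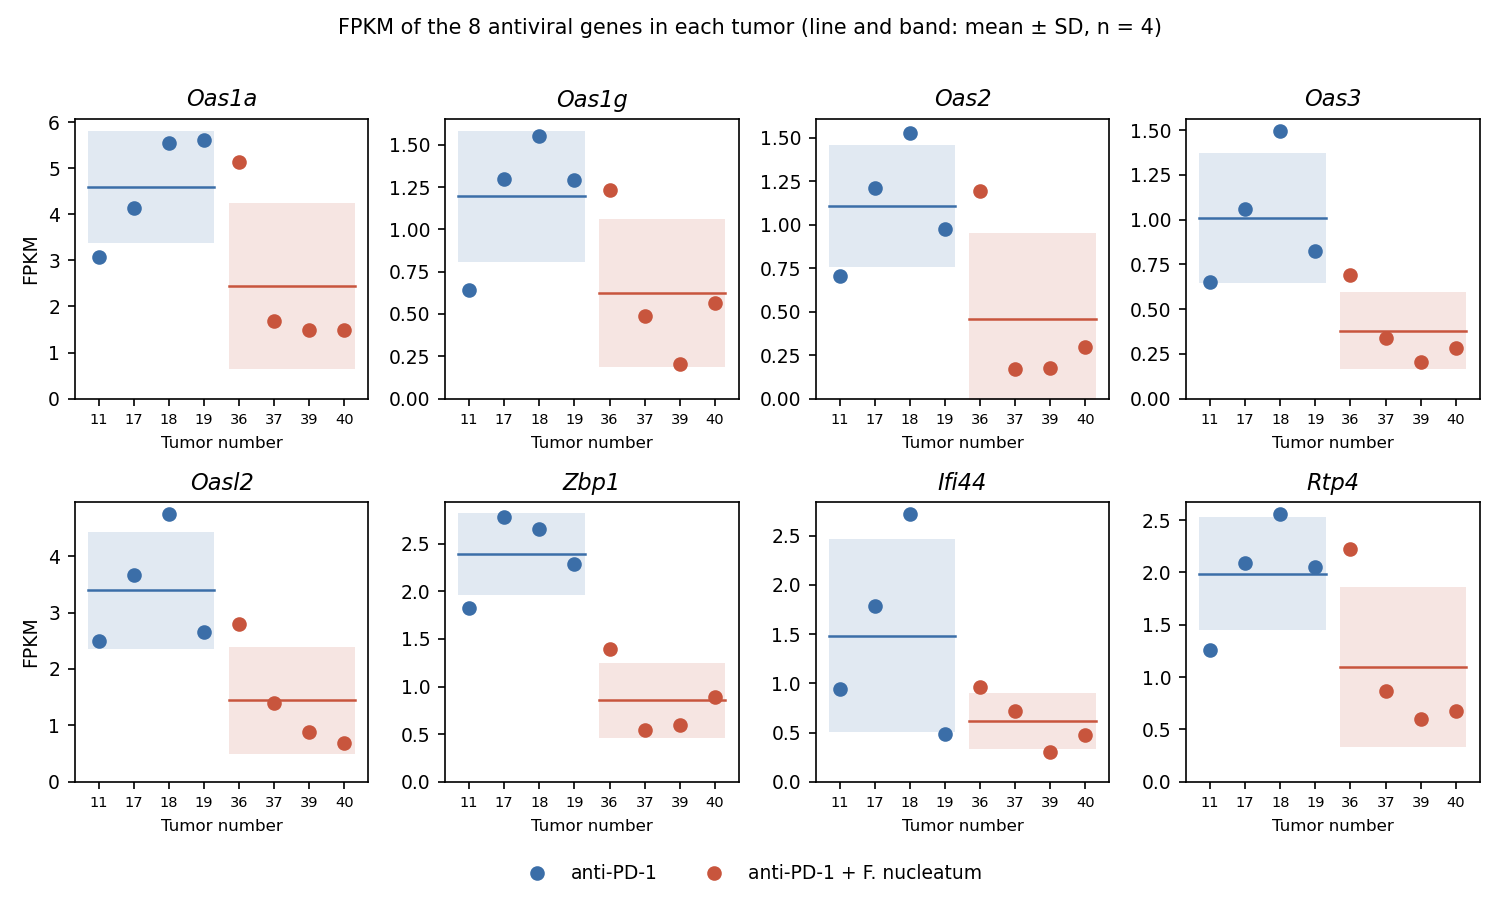
FPKM of each gene (vertical axis, from 0) in each tumor (horizontal axis); blue points are the 4 antibody-only tumors and red points the 4 anti-PD-1 + F. nucleatum tumors, with lines at the group means and bands of ± 1 SD, those reaching below 0 being clipped there. Tumor 36 is the highest red point in all 8 panels, and tumors 37, 39 and 40 lie below every blue point in 7 of them.

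The synthetases Oas1a and Oas1g, which carry a single catalytic unit, were measured at different levels. Oas1a had 3.08, 4.14, 5.56 and 5.60 FPKM in tumors 11, 17, 18 and 19, and 5.13, 1.67, 1.48 and 1.50 FPKM in tumors 36, 37, 39 and 40. Tumor 36 was near the top of the antibody-only range, while the other F. nucleatum tumors were below every antibody-only tumor. Its log2 difference was -1.09 ± 0.501 (SE, limma), with an adjusted p of 0.118. For Oas1g the values were 0.644, 1.30, 1.55 and 1.29 FPKM in the antibody-only tumors and 1.23, 0.486, 0.204 and 0.567 FPKM in the F. nucleatum tumors, in the same order of tumors. The lowest value again came from tumor 39, where 39 reads were recovered, and tumor 36 overlapped the antibody-only tumors. Oas1g differed by -1.12 ± 0.595 on the log2 scale (limma, adjusted p = 0.136), and by -0.69 without tumor 39.

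Oas2 and Oas3 are the larger synthetases, built of repeated Oas units, and both respond to double-stranded RNA in the cytoplasm. Oas2 had 0.703, 1.21, 1.53 and 0.975 FPKM in the antibody-only tumors and 1.19, 0.172, 0.174 and 0.296 FPKM in the F. nucleatum tumors. Tumor 36 was the only one of its group inside the antibody-only range, and tumors 37 and 39 were lowest. Its log2 difference of -1.70 ± 0.637 was the largest of the 8 genes (limma, adjusted p = 0.101), and the authors' deposited table gave it an FDR of 0.805. Oas3 fell, from 0.652, 1.06, 1.49 and 0.826 FPKM to 0.692, 0.337, 0.204 and 0.281 FPKM. The authors' deposited table gave Oas3 an FDR of 0.0343, although tumor 36 lay just above the lowest antibody-only tumor, so that the groups overlapped. The log2 difference of Oas3 was -1.48 ± 0.499 (limma, adjusted p = 0.09996).

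Oasl2, a synthetase-like protein with added ubiquitin-like domains, had the most reads of the 8 genes, 279 to 1937 per tumor. It had 2.49, 3.67, 4.74 and 2.66 FPKM in the antibody-only tumors and 2.80, 1.40, 0.884 and 0.694 FPKM in the F. nucleatum tumors. Tumor 40 was lowest here, unlike in the other Oas genes, and tumor 36 was again inside the antibody-only range. The log2 difference was -1.39 ± 0.489 (limma, adjusted p = 0.09996), with an FDR of 0.575 in the authors' deposited table.

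Zbp1 (ENSMUSG00000027514, chromosome 2, 173206612 to 173218923, minus strand) was the only one of the 8 genes whose groups did not overlap. It fell from 1.83, 2.78, 2.66 and 2.28 FPKM to 1.39, 0.539, 0.593 and 0.892 FPKM, with tumor 36 below the lowest antibody-only tumor. The mean was 2.39 ± 0.430 FPKM in the antibody-only tumors and 0.854 ± 0.391 FPKM in the F. nucleatum tumors (SD, n = 4 each), a 2.79-fold lower mean. On the log2 scale it differed by -1.55 ± 0.443 (limma, adjusted p = 0.0932), with an exact permutation p of 0.0286, the smallest that 4 against 4 tumors allow. The authors' deposited table gave an FDR of 2.3e-04. Groups without overlap in the lower direction were found for 93 of the 752 genes (12.4%), and for 26.3% of the 353 lower genes, against 1 of these 8.

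Ifi44 (ENSMUSG00000028037, chromosome 3, 151730922 to 151749960, minus strand), a GTP-binding interferon-induced protein, had the largest SD of the 8 among the antibody-only tumors on the log2 scale (1.09), though not in FPKM. Its values there were 0.948, 1.78, 2.72 and 0.490 FPKM, and in the F. nucleatum tumors 0.968, 0.722, 0.305 and 0.480 FPKM. Tumor 19 was as low as tumor 40, so the groups overlapped, and on the log2 values tumor 39 was the only F. nucleatum tumor below every antibody-only tumor. The log2 difference was -1.11 ± 0.601 (limma, adjusted p = 0.145), and it was -0.71 without tumor 18 and -1.54 without tumor 19. Rtp4 (ENSMUSG00000033355, chromosome 16, 23520291 to 23614222, plus strand) had 1.26, 2.09, 2.56 and 2.05 FPKM in the antibody-only tumors and 2.23, 0.870, 0.605 and 0.673 FPKM in the F. nucleatum tumors. Tumor 36 exceeded 3 of the 4 antibody-only tumors in this gene, and tumors 37, 39 and 40 were below all of them. Rtp4 had the smallest log2 difference, -1.02 ± 0.521 (limma, adjusted p = 0.129). The annotated Rtp4 locus overlaps Masp1 on the other strand and Gm45338 on the same strand, which shares 11.6% of its 50-base stretches, and Oas2 overlaps Gm43068 on the other strand. The sources used here do not give the strand setting of the counting, so reads from such overlaps cannot be told apart.

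In the fit across all 752 genes on the deposited log2 values, 0 of the 8 genes had an adjusted p under 0.05 (limma with Benjamini-Hochberg adjustment), and 0 of all 752 did (0%). An unadjusted limma p under 0.05 was reached by 4 of the 8 (Oas2, Oas3, Oasl2 and Zbp1) and, among all genes, by 323 (43%). Of these 323, 207 were lower (27.5% of the table), out of 353 lower genes in all. The 4 of 8 are therefore not a larger share than among the lower genes. Limma-voom on recovered reads called none of the 8 either. The exact permutation test called none after adjustment over the table, because its smallest possible p, 0.0286, became 0.146 (Zbp1). By the authors' FDR, 2 of the 8 were under 0.05, against 47 of the 353 lower genes (6.25% of the table). Without tumor 36, limma adjusted p-values under 0.05 were given to 6 of the 8 genes, all but Oas1g and Ifi44. In that setting 127 lower genes in all had one (16.9% of the table, where 353 genes were lower with all tumors). The differences were then -2.30 ± 0.360 for Oas2, -1.80 ± 0.282 for Zbp1, -1.81 ± 0.357 for Oas3, -1.76 ± 0.360 for Oasl2, -1.50 ± 0.281 for Oas1a and -1.41 ± 0.311 for Rtp4 (limma SE). Tumor 36 was the highest F. nucleatum tumor in all 8 genes, so leaving it out lowers their group mean in itself. The values without it are therefore descriptions only. Leaving out any other single tumor left 0 of the 8 below the threshold. With all tumors, quantile normalization within the table brought the differences nearer to 0, to -0.39 for Oas1a, -0.42 for Rtp4, -0.44 for Ifi44, -0.75 for Oas1g, -0.82 for Oasl2, -0.83 for Oas3, -0.93 for Zbp1 and -1.29 for Oas2.

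**Figure D2:**
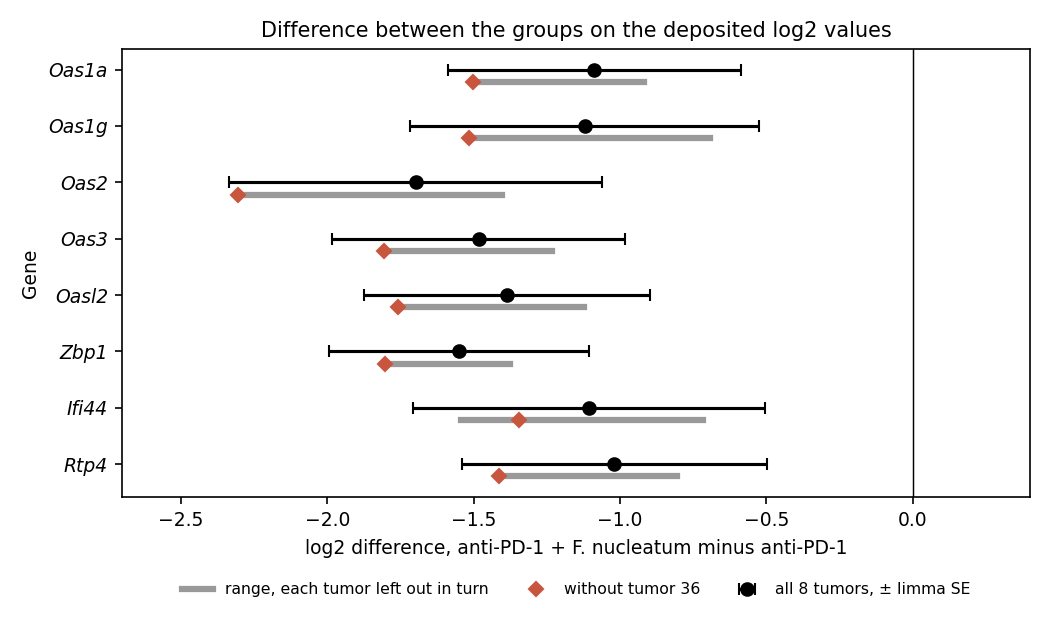
Log2 difference between the groups for each gene (horizontal axis, F. nucleatum minus antibody-only; 0 is no difference): black points with bars are all 8 tumors ± limma SE, gray lines the range when each tumor is left out in turn, and red diamonds the value without tumor 36. All values are below 0, and the diamond sits at the low end of the range for every gene but Ifi44, whose lowest value (-1.54) came without tumor 19.

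Averaged over the 8 genes, the tumors differed from the antibody-only mean by log2 values of -0.57, 0.19, 0.55 and -0.17 in tumors 11, 17, 18 and 19. In tumors 36, 37, 39 and 40 the averages were -0.18, -1.47, -2.04 and -1.53. Tumor 36 therefore lay beside tumor 19 and above tumor 11. Tumor 18 was highest in 7 genes, tumor 11 was the lowest antibody-only tumor in 7, and tumor 39 was the lowest of all tumors in 6. Tumor 36 was the highest F. nucleatum tumor in all 8. Among the 345 other lower genes of the table, tumor 36 lay within the antibody-only range in 220 (63.8%), beside 7 of these 8.

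The 5 Oas genes together had 7.57, 11.4, 14.9 and 11.4 FPKM in tumors 11, 17, 18 and 19 and 11.1, 4.07, 2.95 and 3.34 FPKM in tumors 36, 37, 39 and 40. Their mean sum was 11.3 ± 2.98 FPKM in the antibody-only tumors and 5.35 ± 3.83 FPKM in the F. nucleatum tumors (SD, n = 4 each). Oas1a gave 40.9 ± 5.88% of it in the antibody-only tumors and 45.7 ± 3.78% in the F. nucleatum tumors (exact permutation p = 0.20, n = 4 each; 0.476 adjusted over the 5 genes). Oasl2 gave 30.1 ± 4.47% and 27.6 ± 5.87% (exact permutation p = 0.486, adjusted 0.607), and Oas2 9.70 ± 0.943% and 7.45 ± 2.94% (exact permutation p = 0.286, adjusted 0.476). With 4 against 4 tumors the smallest exact permutation p is 0.0286, so a single share or pair of genes could not pass after adjustment. Oas2 took 4.22% in tumor 37 against 10.8% in tumor 36. Whether any gene of the 8 differed more between the groups than another was tested for all 28 pairs on the log2 values. The smallest exact permutation p was 0.0571, for Oas2 and Oas3 each against Rtp4, and the smallest adjusted p was 0.60. Oas2 differed by 0.68 more than Rtp4 on the log2 scale and Oas3 by 0.46 more, with SEs of 0.319 and 0.149.

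**Figure D3:**
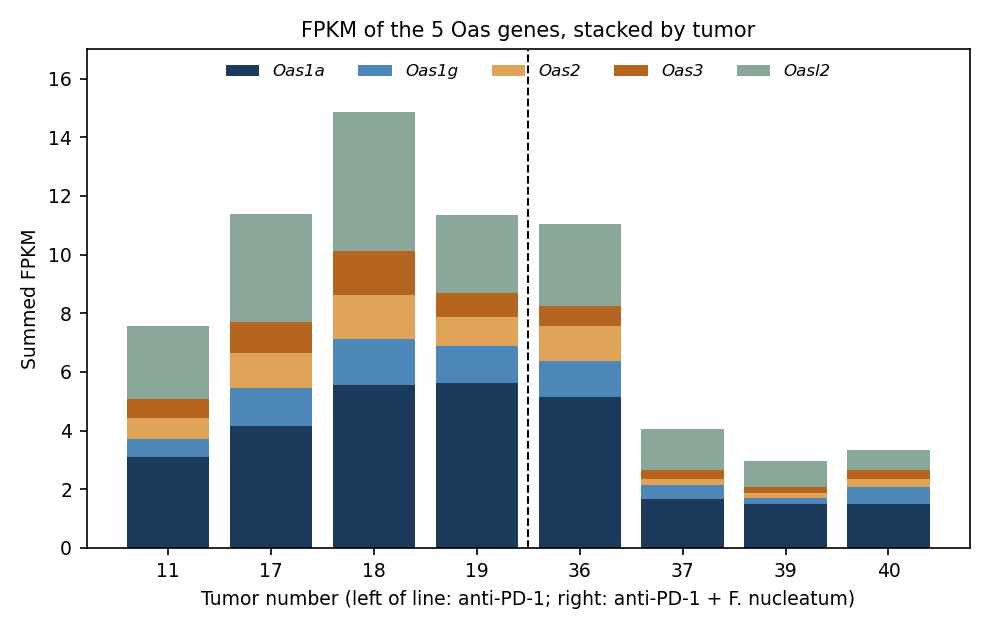
Summed FPKM of the 5 Oas genes (vertical axis) in each tumor (horizontal axis), stacked by gene, with the antibody-only tumors left of the dashed line. The sum was 11.1 FPKM in tumor 36, inside the antibody-only range of 7.57 to 14.9, and 2.95 to 4.07 in the other 3 F. nucleatum tumors.

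Compared per length, Oas1a and Oasl2 had the highest mean levels in both groups, 4.60 and 3.39 FPKM in the antibody-only tumors and 2.45 and 1.44 FPKM in the F. nucleatum tumors. Oas2 and Oas3 had the lowest, at 1.11 and 1.01 FPKM and at 0.459 and 0.379 FPKM. Zbp1 was next and then Rtp4 in the antibody-only tumors, and they changed places in the F. nucleatum tumors (1.09 FPKM for Rtp4, 0.854 for Zbp1). Neighbours in either order overlapped in range across tumors. Compared within each tumor, Oas1a was above Oasl2 in every one, by 3.08 against 2.49 FPKM in tumor 11 and 1.67 against 1.40 FPKM in tumor 37. Oasl2 was above Zbp1 and Zbp1 above Rtp4 in every antibody-only tumor. Among the F. nucleatum tumors Rtp4 was above Zbp1 in all but tumor 40. The order within tumors was not tested.

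Of the rest of the pathway, little is in the deposited table. A list of 13 genes for the Oas family and RNase L has 5 in the table, the 5 named here, all lower (median log2 difference -1.39). A list of 68 antiviral interferon-stimulated genes, which includes the 8, has 14 of its genes there, every one lower, and their median was -1.35. Of all 752 genes 46.9% were lower. The genes and lists were chosen with earlier results of these data known, so the shared direction in both lists is a description only. The median was -1.25 for the 8 genes and -1.82 for all 353 lower genes. None of 10 interferon ligands and none of 20 interferon receptor and signaling genes is in the table, and those genes were not analysed here. Of 24 nucleic acid sensing genes the table holds Zbp1 and Ifi209, and of 7 genes of Zbp1-driven cell death it holds Zbp1 alone.

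The other interferon-stimulated genes of these lists showed the same placement of tumor 36, with 1 exception. Phf11b, a PHD finger gene, had 2.52, 2.99, 2.92 and 2.85 FPKM in the antibody-only tumors and 2.45, 0.262, 0.340 and 0.328 FPKM in the F. nucleatum tumors. Its groups did not overlap, since tumor 36 was just below the lowest antibody-only tumor, and its log2 difference was -2.37 ± 0.674 (limma, adjusted p = 0.0932). Slfn1, a Schlafen gene, differed by -1.66 ± 0.603 and Ifi47, an interferon-inducible GTPase, by -1.79 ± 0.614. Cxcl10, a chemokine that attracts T cells, Ifi209, a member of the DNA-binding PYHIN family, Phf11d and Ifit1bl1, a relative of the RNA-binding IFIT proteins, had log2 differences of -1.30, -1.21, -1.19 and -1.18. In these 6 genes tumor 36 was inside the antibody-only range. In the authors' deposited table the FDR of these 7 was 0.353 to 0.991.

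**Figure D4:**
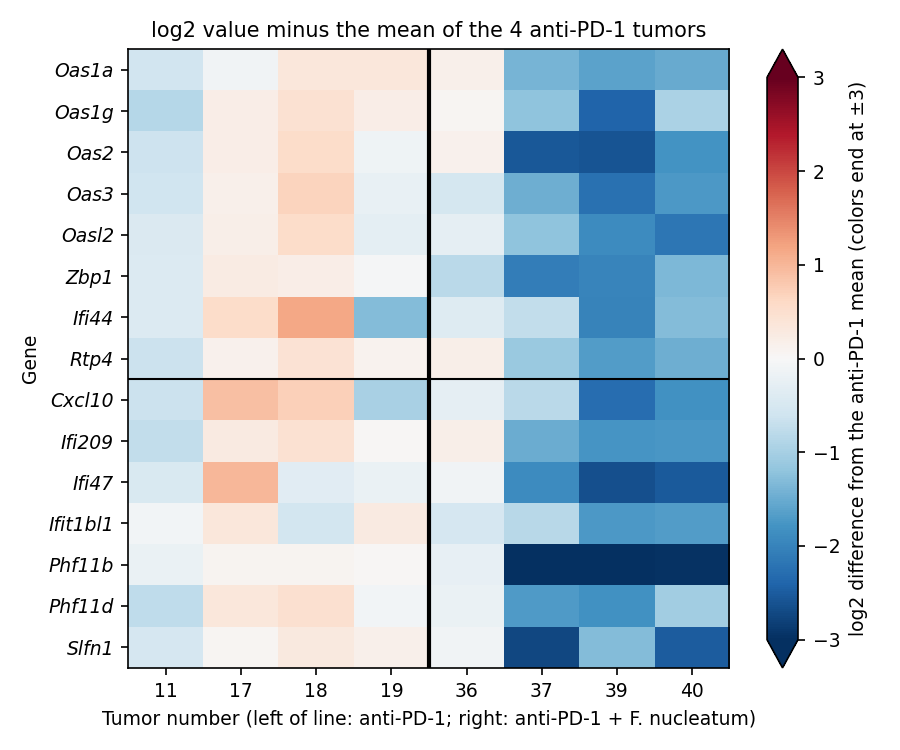
Log2 value of each gene (rows; the 8 genes above the line, 7 other listed interferon-stimulated or sensing genes below it) in each tumor (columns), minus the mean of the 4 antibody-only tumors; blue is lower and red higher. Tumor 36, the first column right of the vertical line, is pale in nearly all rows (-0.80 for Zbp1, 0.17 for Rtp4), and tumors 37, 39 and 40 are blue in all rows.

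The genes whose variation inside the groups was most like that of the 8 were sought among 144 other genes averaging 1 FPKM or more. Each log2 value was first centred on its group mean, so that the difference between groups does not enter. The 6 most alike were Psmb8, a subunit of the immunoproteasome (Pearson's r = 0.98 with the mean of the 8, over 8 tumors), Sp140, an interferon-inducible nuclear protein (0.97), Cd74, the invariant chain of MHC class II (0.96), the interferon-induced GTPases Tgtp2 (0.96) and Tgtp1 (0.95), and Ifi209 (0.96). Spearman's rho was 0.90 to 0.98 for these 6. The median r of the 144 genes was 0.54. Without tumor 36, a setting chosen after seeing the data, the 6 had r of 0.88 to 0.97 and the median was 0.28. These are descriptions of genes picked for their likeness, with no test, over points that share library and depth. Each of the 8 is itself part of their mean, which tends to raise its r, so their r is not comparable with that of the other genes. Of the 8 themselves Oas3 was nearest to their mean (r = 0.99, and 0.99 without tumor 36). The lowest r was that of Ifi44 with all tumors (0.74) and that of Zbp1 without tumor 36 (0.65).

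The T cell, NK cell and dendritic cell markers that the table holds were lower in the F. nucleatum group too, and in bulk RNA fewer cells of a type and less RNA per cell cannot be told apart. The table holds 8 of 15 T cell markers, each lower, and their summed level was 3.06 to 8.34 FPKM in the antibody-only tumors and 0.628 to 2.69 FPKM in the F. nucleatum tumors. Cd3d and Cd8b1 were listed at 0 in tumor 40. Tumor 36, with 2.69 FPKM, was below every antibody-only tumor in this T cell sum but not in the Oas sum. Taken singly, 4 of the 8 T cell markers (Cd2, Cd3g, Cd6 and Trac) had tumor 36 inside the antibody-only range. Tumor 18 had the lowest T cell sum of its group (3.06 FPKM) and the highest Oas sum, and tumor 11 had the lowest Oas sum with a T cell sum of 6.40 FPKM. The 6 of 9 NK cell markers in the table summed to 6.68 to 14.7 and 0.301 to 4.47 FPKM, with Eomes listed at 0 in tumor 37 and Klrd1 and Gzma in tumor 40. This sum rests on Klrk1, Klrd1, Gzma, Gzmb, Nkg7 and Eomes, and how much of it came from T cells was not tested. The 2 of 10 dendritic cell markers, Itgax and Siglech, summed to 2.10 to 7.29 FPKM and 0.851 to 2.13 FPKM, with tumor 18 highest (7.29). Tumor 36 (2.13) was only just inside the antibody-only range, beside tumors 11 (2.10) and 19 (2.12). Itgax made up nearly all of this sum. Its means were 3.75 FPKM (antibody-only) and 1.38 FPKM (F. nucleatum), against 0.0989 and 0.0110 FPKM for Siglech. Siglech, a marker of plasmacytoid dendritic cells, was listed at 0 in tumors 17 and 40. None of 12 macrophage, 5 B cell and 6 general leukocyte markers is in the table. The part of these cells in the antiviral genes was not tested.

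**Figure D5:**
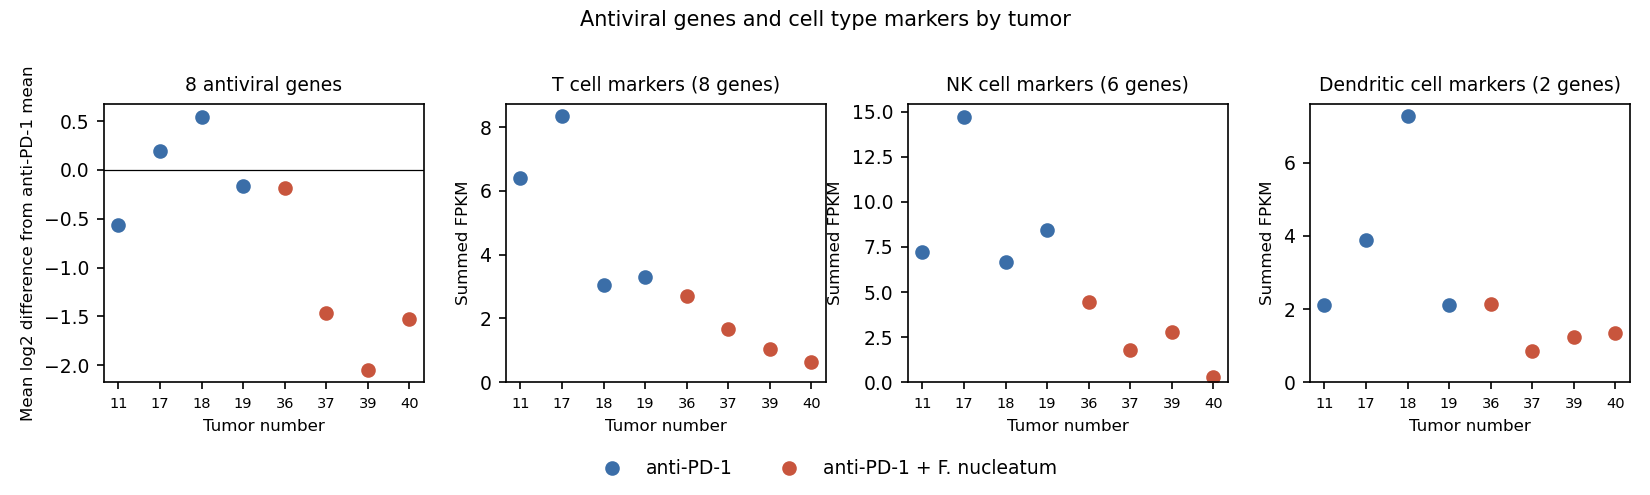
By tumor (horizontal axes), the mean log2 difference of the 8 antiviral genes from the antibody-only mean (first panel) and the summed FPKM of T cell, NK cell and dendritic cell markers in the table (other panels); blue is anti-PD-1, red anti-PD-1 + F. nucleatum. Tumor 36 is inside the blue range for the antiviral genes (-0.18) and below it for the T cell (2.69) and NK cell (4.47) markers. For the dendritic markers, almost all Itgax, it is only just inside (2.13).

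Other marker lists moved with the group or with single libraries. All 6 red blood cell markers were in the table and higher, with an authors' FDR under 0.05 each, and summed to 357.6 to 657.5 FPKM in the antibody-only tumors and 582.2 to 1456 FPKM in the F. nucleatum tumors. Lcn2, the 1 of 9 neutrophil markers in the table, had 1.95 to 4.69 FPKM and 0.500 to 1.65 FPKM, without overlap. All 12 skeletal muscle markers were in the table and higher, with a summed level of 379.3 FPKM in tumor 36, 19.2 in tumor 37 and 1.96 to 4.10 in the other 6 tumors. The 8 of 10 keratinocyte markers in the table summed to 214.4 FPKM in tumor 37 and 0.310 to 0.599 in the others. Epcam, the 1 of 8 colon carcinoma markers in the table, was listed at 0 in 6 tumors and reached 1.30 FPKM in tumor 37. The part of these tissues and cells in the antiviral genes was not tested. With tumors 36 and 37 both left out, all 8 antiviral genes stayed lower and 6 had a limma adjusted p under 0.05. In that setting 83 lower genes in all had one (11% of the table, where 353 genes were lower with all tumors). Dropping tumor 36, the highest F. nucleatum tumor in all 8 genes, lowers their group mean in itself. This setting therefore does not test the part of those tissues.

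Depth was not recoverable as a library total. The reads recovered in the 752 genes ranged from 97511 to 308139 per tumor, and for the 8 genes from 39 to 1937 per gene and tumor, so none was near a count of 0. The labels do not say that each tumor came from a separate mouse, and the p-values measure the spread between these 8 tumors.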

How the data were processed

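RNA of the 8 tumors was extracted with TRIzol, and TruSeq libraries that keep the strand were sequenced, per the labels' protocols. STAR 2.5, Cuffnorm, DESeq 1.22.1, FastQC and the build mm10 are named, without their roles, in the submitters' processing notes. The authors deposited 1 table with a log2 value and an FPKM value per gene and tumor, a log2 fold change between groups, and a p-value and FDR whose test no source used here states. The table is a selection: its largest p is 0.04995 and its smallest absolute log2 fold change 1.001. Each deposited log2 value is the log2 of 1 plus a normalized count, as read from the values: 100% of those above 0 were whole multiples of 1 read at a tolerance of 0.1 read.

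Groups followed the labels. The genes and lists were chosen with earlier results of these data known. Genes named in the text are the 8, every other gene of the pathway lists found in the table, the 6 most like the 8 inside the groups, and marker genes listed at 0 or standing for a list. Differences were fitted with limma 3.58.1 in R 4.3.3 (eBayes with trend, all 752 genes unfiltered, Benjamini-Hochberg adjustment), and the fit was checked on simulated data. There both groups had the antibody-only spread of each gene, and genes varied independently. The check therefore does not cover unequal spread between groups or a single tumor standing apart. With a filter at 1 FPKM, 5 of the 8 genes and 149 of all would pass. Since all tested genes were selected on this comparison, the adjusted p-values describe this table only. Single values had two-sided exact permutation tests (70 arrangements). Other steps used Python 3.11.15, numpy 2.4.6, pandas 2.3.3 and matplotlib 3.10.9. Positions come from GENCODE M21, where all 8 gene IDs matched, and promoters from RefSeq. Alternatives were other scales, filters, scalings, variance models and tests, and each tumor left out.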

Additional observations from a re-analysis of the deposited data

Results flagged for a closer look

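In 4 of 32 sets of 4 tumors (8 genes, 2 groups, log2 and FPKM values), 1 tumor stood apart by Dixon's criterion, which chance meets in about 1 of 20 sets. All 4 were tumor 36 among the F. nucleatum tumors, and they concern 3 genes. Oas1a stood apart with a log2 value of 9.23 and with 5.13 FPKM, where the others of its group had 1.48 to 1.67 FPKM. Oas2 did so with 1.19 FPKM (0.172 to 0.296 in the others) and Rtp4 with 2.23 FPKM (0.605 to 0.870). All 4 values lie between the lowest and highest antibody-only (anti-PD-1) tumors. The 4 are not separate observations, since they come from 1 library and 2 of them are the same gene on different scales. Tumor 36 is also the library with 379.3 FPKM of skeletal muscle markers, and the part of that tissue in these values was not tested.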

How the results depend on the processing

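None of the 8 genes changed direction under any alternative, in 141 differences. Without trend, with the filter at 1 FPKM and with exact permutation the difference is the main one itself, so its direction could not change. The genes of the table were also selected on this comparison, so a stable direction is a description only. Of the 141, 118 stayed on the same side of the threshold and 23 moved past it. The 118 include the adjusted exact permutation tests, whose smallest possible p became 0.146 after adjustment over this table. The count of the 8 with a limma adjusted p under 0.05, 0 with all tumors, became 4 when every tumor was centred on its median, 7 with array weights and 6 without tumors 36 and 37. With each tumor left out in turn it ranged from 0 to 6, and the 6 came without tumor 36. For all 752 genes the count of 0 became 125 with median centring, 8 with quantile normalization, 238 with array weights and 126 without tumors 36 and 37, and ranged from 0 to 140 over single tumors left out. Without tumor 37 it was 33, and without tumors 18 or 40 it was 2. Array weights counted tumor 37 at 0.0580 and tumor 36 at 0.392, and the other tumors at 1.27 to 2.11. The median log2 difference of all 752 genes was 1.18, and it was 0.57 with median centring and 0.88 with quantile normalization. Both scalings were estimated from the selected genes alone (399 higher, 353 lower), so real group differences can enter the shift that they remove. All 8 genes stayed lower in both, but their differences grew with median centring, to -1.63 (Rtp4) to -2.31 (Oas2), and shrank with quantile normalization, to -0.39 (Oas1a) to -1.29 (Oas2). On log2(FPKM + 1) they were -0.45 (Oas1g) to -0.89 (Oasl2). At an authors' FDR under 0.01, 1 of the 8 remained, Zbp1. No paired analysis was possible because the labels carry no replicate numbers. The other settings (log2(FPKM + 1), a pseudocount of 0.1 FPKM, a filter at 1 FPKM, no trend, voom, exact permutation and an adjusted p under 0.01) kept the count at 0. For the stricter threshold that outcome was fixed by the count of 0 at 0.05. For exact permutation the smallest possible p of 4 against 4 tumors became 0.146 after adjustment over this table, so no gene passed. Library totals are unknown, so depth limits cannot be given for genes outside the table.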
